A study of Rattus norvegicus with 12 samples.

Results

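The genes described here encode transporters that move neurotransmitters and amino acids across the plasma membrane or into synaptic vesicles. They were chosen by name, as every gene whose symbol belongs to the families Slc1a, Slc6a, Slc17a, Slc18a, Slc32a or Slc38a, and 45 of the 16468 genes in the expression tables belonged to them. Expression was measured by RNA-seq in HCN cells, a neural stem cell line isolated and cloned from the hippocampus of adult rats, so that all samples came from 1 clonal line. There were 4 groups, and all cells in them had been electroporated. REST knockdown iQNPs (4 libraries) and control iQNPs (2 libraries) were kept in FGF2 with BMP4, under which the cells enter a quiescent state (induced quiescent neural progenitors, iQNPs). REST knockdown TAPs (4 libraries) and control TAPs (2 libraries) were kept in FGF2 alone, under which they proliferate as transient-amplifying progenitors (TAPs). The labels give glutamate as 1 of the supplements of the medium in both. Knockdown cells received a plasmid with a short hairpin RNA against Rest and control cells the same vector without it, both carrying EGFP, and the study's methods place its downstream analyses at 48 h after electroporation. Whether the cells sequenced were sorted for EGFP is not given in the sources used here.

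REST is a transcriptional repressor that binds a DNA element called RE1 and keeps neuronal genes low outside neurons. The transporters named here fall into a few working groups. Slc1a and Slc6a carriers take up glutamate, GABA, glycine, monoamines and related compounds through the plasma membrane with sodium. Slc38a carriers move glutamine and other small neutral amino acids, and the Slc17a, Slc18a and Slc32a families include the carriers that load transmitters into vesicles. In the adult hippocampus, glutamate uptake by GLAST is a feature of radial glia-like stem cells and astrocytes, whereas vesicular loading belongs to neurons.

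All levels are in FPKM (fragments scaled by transcript length and by the mapped fragments of the library), a unit per length that allows genes to be set side by side. The tables hold 1 value per gene and group, formed by the authors from all libraries of that group. Therefore no spread between libraries and no test could be computed, the depth behind each value is not known from the tables, and every difference below is a description of 4 pooled values. Differences are given as log2 ratios of FPKM + 1, which understate the change of low genes. A gene is called higher or lower when its ratio reached a fold of at least 2 (a log2 ratio of 1), with a mean of at least 1 FPKM over the 4 groups and a value above 0 in both groups compared.

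The targeted gene was lower in both knockdown groups. Rest (chromosome 14) had 13.9 FPKM in REST knockdown iQNPs against 48.7 FPKM in control iQNPs (log2 ratio -1.74), and 9.002 FPKM in REST knockdown TAPs against 27.8 FPKM in control TAPs (log2 ratio -1.53). Among markers of the cell type, 8 of the 8 neural stem and progenitor genes found reached a mean of 1 FPKM, Nes, Sox2 and Vim among them. Of 5 astrocyte genes found, Aqp4 and Gjb6 had no more than 0.104 FPKM in any group. S100b had 485 FPKM in REST knockdown iQNPs, 521 FPKM in control iQNPs, 375 FPKM in REST knockdown TAPs and 374 FPKM in control TAPs, and Gja1 had 12.2, 21.8, 3.31 and 7.97 FPKM in the same groups. Gfap had 18.9 FPKM in REST knockdown iQNPs, 16.98 FPKM in control iQNPs, 1.36 FPKM in REST knockdown TAPs and 1.056 FPKM in control TAPs. None of 4 endothelial genes and none of 5 fibroblast and mural genes reached a mean of 1 FPKM, and of 6 microglial and leukocyte genes 1 did, Cd68. The FPKM of all genes summed to 1.058e+06 in REST knockdown iQNPs, 734692 in control iQNPs, 1.015e+06 in REST knockdown TAPs and 665644 in control TAPs. Scaling each pair of groups to 1 common sum would shift the knockdown FPKM by -0.53 on the log2 scale in iQNPs and by -0.61 in TAPs, and the ratios of low genes by less because of the + 1, whereas the median over all genes was already near 0 (0.00 in iQNPs and 0.01 in TAPs).

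Of the 45 transporter genes, 20 reached a mean of 1 FPKM, among them Slc18a2, which did so only through its values in the knockdown groups. The other 25 averaged less, and 24 of these stayed below 1 FPKM in each of the 4 groups. The expressed set was dominated by carriers of ordinary amino acids. By family, 5 of 7 Slc1a genes, 5 of 17 Slc6a genes, 7 of 9 Slc38a genes and 3 of 12 genes of the vesicular families reached this level. The transporter genes together summed to 364 FPKM in REST knockdown iQNPs and 453 FPKM in control iQNPs, and to 474 FPKM in REST knockdown TAPs and 575 FPKM in control TAPs. A single gene, Slc38a2, supplied 38.5% of that sum in REST knockdown iQNPs, 47.7% in control iQNPs, 43.6% in REST knockdown TAPs and 48.3% in control TAPs, so the sums largely follow 1 gene.

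**Figure D1:**
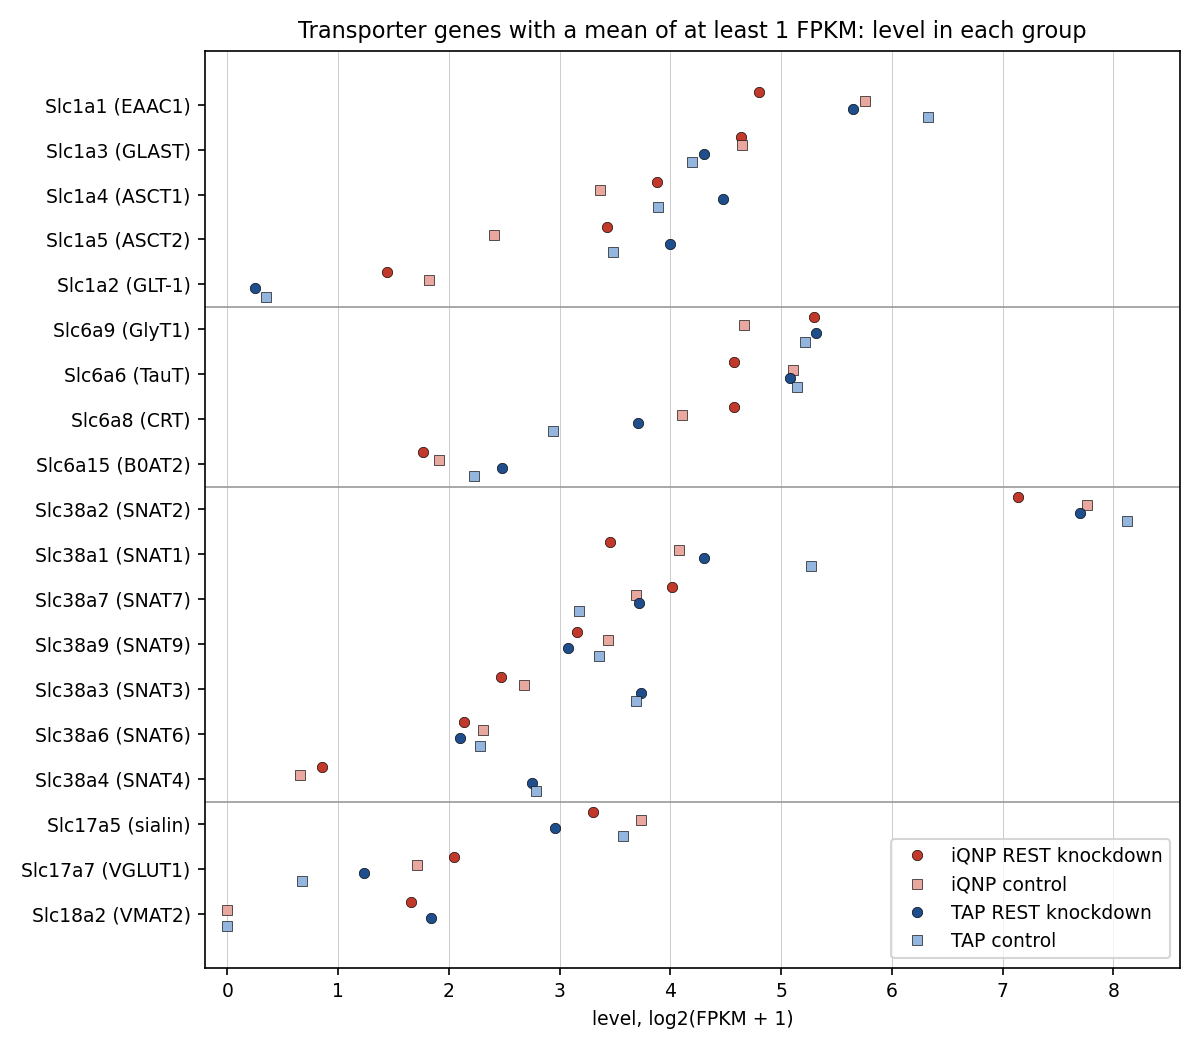
Level of 19 of the 20 transporter genes with a mean of at least 1 FPKM, as log2(FPKM + 1) on the horizontal axis, with 1 point per group (circles for REST knockdown, squares for control, red for iQNPs, blue for TAPs). Grey lines part the families. Slc38a2 lies far to the right of the other genes in all 4 groups (139.9 to 278 FPKM), and Slc18a2 lies at 0 in both control groups.

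Among the Slc1a genes, the 2 most abundant glutamate carriers differed from each other. Slc1a1 encodes EAAC1, which takes up glutamate, aspartate and cysteine (rn4 chr1:232469745-232549584). It had 26.8 FPKM in REST knockdown iQNPs against 53.0 FPKM in control iQNPs, 50.6% of the control level, and 49.3 FPKM in REST knockdown TAPs against 79.4 FPKM in control TAPs, 62.1% of the control level. The log2 ratios were -0.96 and -0.68, so Slc1a1 was below its control in both conditions and just inside the fold of 2 in iQNPs. Slc1a3 encodes GLAST, the glutamate carrier of radial glia and astrocytes (chr2:58270235-58347613). Its level hardly differed with the knockdown, at 23.9 FPKM in REST knockdown iQNPs against 24.0 FPKM in control iQNPs, and 18.7 FPKM in REST knockdown TAPs against 17.3 FPKM in control TAPs. The small TAP ratio of 0.11 turns to -0.46 with both groups at 1 sum of FPKM. Slc1a2, which encodes GLT-1, the main glutamate carrier of mature astrocytes, was low throughout (chr3:87870557-87992401). It had 1.73 FPKM in REST knockdown iQNPs against 2.53 FPKM in control iQNPs, and 0.187 FPKM in REST knockdown TAPs against 0.277 FPKM in control TAPs.

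The exchangers of neutral amino acids in the same family lay above their controls in the unscaled values. Slc1a5 encodes ASCT2, which exchanges glutamine for other neutral amino acids (chr1:77111081-77125166). It had 9.74 FPKM in REST knockdown iQNPs against 4.32 FPKM in control iQNPs, a log2 ratio of 1.01 that just passed the fold. In TAPs it had 14.9 FPKM in REST knockdown cells against 10.2 FPKM in control cells, a log2 ratio of 0.51. The iQNP call is lost at 1 common sum of FPKM (0.54) and the TAP ratio then turns to -0.05. Slc1a4 encodes ASCT1, an exchanger of alanine, serine and cysteine (chr14:101123739-101153790). It had 13.7 FPKM in REST knockdown iQNPs against 9.32 FPKM in control iQNPs, and 21.2 FPKM in REST knockdown TAPs against 13.8 FPKM in control TAPs, log2 ratios of 0.51 and 0.58. At 1 common sum of FPKM almost no difference is left, with ratios of 0.03 in iQNPs and 0.008 in TAPs. The remaining Slc1a genes, Slc1a6 and Slc1a7, did not exceed 0.194 FPKM in any group.

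In the Slc6a family, the 3 most abundant genes were carriers of glycine, taurine and creatine rather than of monoamines. Slc6a9 encodes the glycine transporter GlyT1 (chr5:138300868-138338194). It had 38.4 FPKM in REST knockdown iQNPs against 24.4 FPKM in control iQNPs (log2 ratio 0.64), and 38.8 FPKM in REST knockdown TAPs against 36.3 FPKM in control TAPs (log2 ratio 0.10). In the unscaled values control iQNPs had the lowest level and the other 3 groups lay close together, whereas at 1 common sum of FPKM the ratios are 0.13 in iQNPs and -0.49 in TAPs. Slc6a6 encodes the taurine transporter (chr4:125875816-125945792). It showed the reverse arrangement, with REST knockdown iQNPs at 22.9 FPKM against 33.6 FPKM in control iQNPs (log2 ratio -0.53), and REST knockdown TAPs at 32.8 FPKM against 34.3 FPKM in control TAPs (log2 ratio -0.06). Slc6a8 encodes the creatine transporter (chrX:159570788-159580092). It had 22.8 FPKM in REST knockdown iQNPs against 16.2 FPKM in control iQNPs, and 12.04 FPKM in REST knockdown TAPs against 6.70 FPKM in control TAPs (log2 ratios 0.47 and 0.76). At 1 common sum of FPKM the iQNP ratio of Slc6a8 is -0.03 and the TAP ratio 0.21.

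Slc6a15, which encodes a carrier of branched-chain amino acids and proline, was expressed at a few FPKM. It had 2.40 FPKM in REST knockdown iQNPs against 2.76 FPKM in control iQNPs, and 4.59 FPKM in REST knockdown TAPs against 3.68 FPKM in control TAPs. Its ratios had opposite signs in iQNPs and TAPs, and the TAP sign turns under a scaling. The carriers that recover noradrenaline, dopamine and serotonin at nerve endings (Slc6a2, Slc6a3 and Slc6a4) were all below 1 FPKM in every group. The highest of their values was that of Slc6a4 in REST knockdown iQNPs, 0.510 FPKM. The other 9 Slc6a genes, among them the GABA transporters Slc6a11 and Slc6a13 and the glycine transporter Slc6a5, also stayed below 1 FPKM. Slc6a17 was not among the genes found.

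The Slc38a family held the most abundant transporter transcript. Slc38a2 encodes SNAT2, a sodium-coupled carrier of small neutral amino acids whose level is known to respond to amino acid supply (chr7:135365171-135377341). It had 139.9 FPKM in REST knockdown iQNPs against 216 FPKM in control iQNPs, and 207 FPKM in REST knockdown TAPs against 278 FPKM in control TAPs. The log2 ratios were -0.62 and -0.42, and the gene was below its control in both conditions. Slc38a1 lies in the same stretch of chromosome 7 and encodes SNAT1, a glutamine carrier (chr7:135252262-135316256). It had 9.96 FPKM in REST knockdown iQNPs against 15.9 FPKM in control iQNPs (log2 ratio -0.62). In TAPs it had 18.7 FPKM in REST knockdown cells against 37.6 FPKM in control cells (log2 ratio -0.97), 49.8% of the control level. Of the 7 expressed Slc38a genes, 5 had a ratio below 0 in iQNPs and 5 in TAPs, with Slc38a7 turning below 0 in both comparisons, Slc38a4 in iQNPs and Slc38a3 in TAPs at 1 common sum of FPKM.

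The remaining Slc38a genes had knockdown ratios between -0.28 and 0.54. Slc38a7 encodes SNAT7, a lysosomal carrier of glutamine and asparagine, and it had 15.2 FPKM in REST knockdown iQNPs against 11.9 FPKM in control iQNPs, and 12.1 FPKM in REST knockdown TAPs against 8.04 FPKM in control TAPs. Slc38a9 encodes a lysosomal arginine sensor of the mTORC1 pathway. It had 7.91 FPKM in REST knockdown iQNPs against 9.81 FPKM in control iQNPs, and 7.46 FPKM in REST knockdown TAPs against 9.23 FPKM in control TAPs. Slc38a3, which encodes the glutamine carrier SNAT3 of astrocytes, Slc38a6 and Slc38a4 had knockdown ratios between -0.21 and 0.20. Slc38a5 and Slc38a8 stayed at or below 0.233 FPKM, and Slc38a10 and Slc38a11 were not among the genes found.

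Among the vesicular families, Slc18a2 stood apart. It encodes VMAT2, which loads dopamine, noradrenaline, serotonin and histamine into vesicles (chr1:265789916-265824551). Slc18a2 had 2.16 FPKM in REST knockdown iQNPs and was listed at 0 FPKM in control iQNPs. In TAPs it had 2.58 FPKM in REST knockdown cells and was again listed at 0 FPKM in control cells. It was thus present at a low level in both knockdown groups and listed at 0 in both control groups. A fold against a listed 0 is not given, and a 0 in these tables need not mean that the transcript was absent. This pattern, 0 FPKM in both controls and at least 2 FPKM in both knockdown groups, was found for 16 of the 16468 genes (0.0972%), and 6 of these 16 were genes of cytosolic ribosomal proteins, which every growing cell uses. The opposite pattern was found for 0 genes. The limit of 2 FPKM lies just below both knockdown values of Slc18a2, and the 16468 genes include unexpressed ones. The share of 0.0972% therefore does not measure how rare the Slc18a2 values are. Fewer genes were listed at 0 in the knockdown groups (2727 in iQNPs and 2210 in TAPs) than in the control groups (3783 in iQNPs and 3415 in TAPs), and the part of this imbalance in the Slc18a2 values was not tested.

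The enzymes that make the cargo of VMAT2 were low. Th, which encodes the rate-limiting enzyme of catecholamine synthesis, had 0.0524 FPKM in REST knockdown iQNPs against 0.0564 FPKM in control iQNPs, and was listed at 0 in both TAP groups. Ddc, which encodes the decarboxylase that forms dopamine and serotonin, had 0.608 FPKM in REST knockdown iQNPs against 0.760 FPKM in control iQNPs, and 0.579 FPKM in REST knockdown TAPs against 1.41 FPKM in control TAPs. Hdc, which encodes the enzyme that forms histamine, had 0.488 FPKM in REST knockdown iQNPs against 0.291 FPKM in control iQNPs, and 0.229 FPKM in REST knockdown TAPs against 0.387 FPKM in control TAPs. These enzymes thus stayed below Slc18a2 in both knockdown groups. Of 11 monoamine and acetylcholine enzymes found, 2 reached a mean of 1 FPKM. Neither passed the fold in any comparison, and 1 of them was Maoa, which encodes a degrading enzyme.

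The glutamate loader of hippocampal and cortical neurons was present at a low level. Slc17a7, which encodes VGLUT1 (chr1:95640749-95651938), had 3.13 FPKM in REST knockdown iQNPs against 2.28 FPKM in control iQNPs, and 1.36 FPKM in REST knockdown TAPs against 0.601 FPKM in control TAPs. The knockdown ratios were 0.33 and 0.56, the first of which turns to -0.05 at 1 common sum of FPKM. Without a pseudocount the TAP values alone would pass the fold, since the knockdown level was 226% of the control level. Slc17a5 encodes sialin, a lysosomal exporter of sialic acid (chr8:83516463-83551409). It was the most abundant gene of these families and lay below its control in both conditions, with 8.84 FPKM in REST knockdown iQNPs against 12.3 FPKM in control iQNPs, and 6.80 FPKM in REST knockdown TAPs against 10.9 FPKM in control TAPs.

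The other loaders of classical transmitters were near or at the floor of the tables. Slc17a6 (VGLUT2) had 0.00256 FPKM in REST knockdown iQNPs, 0.0224 FPKM in control iQNPs, 0.0649 FPKM in REST knockdown TAPs and 0.128 FPKM in control TAPs. Slc17a8 (VGLUT3) had 0.0509 FPKM in REST knockdown iQNPs, 0 FPKM in control iQNPs, 0.0613 FPKM in REST knockdown TAPs and 0.110 FPKM in control TAPs. The vesicular GABA and glycine carrier Slc32a1 had 0.0701 FPKM in REST knockdown iQNPs, 0.207 FPKM in control iQNPs, 0.0353 FPKM in REST knockdown TAPs and 0 FPKM in control TAPs. At such levels no direction is read from any of them. Slc18a1 (VMAT1) did not exceed 0.136 FPKM. Slc18a3 (VAChT), the vesicular carrier of acetylcholine, had 0.904 FPKM in REST knockdown iQNPs against 0.377 FPKM in control iQNPs, and 0.460 FPKM in REST knockdown TAPs against 0.0684 FPKM in control TAPs. The tables give Slc18a3 the same locus as Chat, which encodes the enzyme that makes acetylcholine, so reads could have been divided between them and the Slc18a3 values are uncertain. Slc17a2 and Slc17a3 likewise share a locus and stayed at or below 0.136 FPKM. Slc17a9 (VNUT), which loads ATP, did not exceed 0.716 FPKM. Slc17a1 had 0.311 FPKM in REST knockdown TAPs against 1.82 FPKM in control TAPs, the highest value among the genes averaging below 1 FPKM, and was listed at 0 in both iQNP groups.

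Promoter sequences were examined for the elements that bear on these genes, RE1 above all. RefSeq windows of 300 bases on build GRCr8 (250 bases before to 50 after the annotated start) were matched by symbol for 33 of the 45 transporter genes, 36 windows in all. Neither stretch of the RE1 element, its left part TTCAGCACC and its right part GGACAGCGC, was found on either strand of these windows. The same letters occur in 0.356% and 0.415% of all 33469 rat windows, and an absence says only that these exact letters are not in the window. The shorter core GGACAG, which is part of the right stretch, was found in 10 of the 36 windows, against 21.7% of all windows. Those of Slc18a2, Slc17a7 and Slc38a4 were among the 10. The cAMP response element TGACGTCA was found in 2 of the 36 windows (Slc18a2 and Slc38a6), against 1.83% of all windows. The letters TGATGCAAT, a core of amino acid response elements, were found in 0 of the 36 windows, against 0.188% of all windows, and the E box CACGTG in 5, against 6.42%. The 250 bases before the annotated start follow for 3 genes, each 5′ to 3′ on the strand of the gene. Slc18a2 is shown for its values of 0 in both controls (GRCr8 chr1:268399771-268400020, plus strand, with TGACGTCA in capitals). The GGACAG match of Slc18a2 is not within the bases shown. Slc17a7 is shown as the expressed vesicular gene with the highest knockdown ratios among those above 0 FPKM in all groups, and Slc38a4 as the gene that differed most between the culture conditions, both with GGACAG in capitals (GRCr8 chr1:104785955-104786204, plus strand, and chr7:130082170-130082419, minus strand).
Slc18a2: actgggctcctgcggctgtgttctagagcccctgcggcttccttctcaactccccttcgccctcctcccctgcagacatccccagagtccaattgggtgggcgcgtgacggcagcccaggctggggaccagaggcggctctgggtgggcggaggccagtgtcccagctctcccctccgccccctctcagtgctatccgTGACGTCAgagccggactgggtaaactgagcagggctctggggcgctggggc
Slc17a7: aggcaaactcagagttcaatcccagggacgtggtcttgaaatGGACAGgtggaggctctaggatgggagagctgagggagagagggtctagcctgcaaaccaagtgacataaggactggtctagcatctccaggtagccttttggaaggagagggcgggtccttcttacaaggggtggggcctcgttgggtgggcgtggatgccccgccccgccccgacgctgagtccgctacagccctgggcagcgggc
Slc38a4: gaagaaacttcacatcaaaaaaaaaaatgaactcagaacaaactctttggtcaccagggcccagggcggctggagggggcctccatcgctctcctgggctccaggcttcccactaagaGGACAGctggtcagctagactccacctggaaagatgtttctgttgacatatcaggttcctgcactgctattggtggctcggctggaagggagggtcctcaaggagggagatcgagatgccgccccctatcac
A match of these letters is a description of the sequence, and binding was not examined here.

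Few transporter genes passed the fold with REST knockdown. In iQNPs, 1 of the 19 transporter genes above 0 FPKM in both groups was higher by the fold (Slc1a5) and 0 were lower, whereas over all 9490 genes 14.0% were higher and 3.07% lower. In TAPs, 0 of 19 were higher and 0 lower, against 14.7% higher and 6.58% lower of 9455 genes. These shares are not matched for the genomic span of the genes. In the quartile of the longest genes, which holds 9 of the 19, 2.87% of genes were higher and 7.42% lower in iQNPs. In TAPs these shares were 4.27% and 9.82%. The small counts are therefore not read as a trait of the transporter genes. The transporter ratios lay between -0.96 and 1.01 in iQNPs and between -0.97 and 0.76 in TAPs, with medians of -0.14 and -0.04. For comparison, the 5th and 95th percentiles of all genes were -0.92 and 1.80 in iQNPs and -1.06 and 1.76 in TAPs. An absolute ratio under 0.5 was found for 12 of 19 transporter genes in iQNPs, against 49.6% of all genes, and for 11 of 19 in TAPs, against 47.7% of all genes.

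**Figure D2:**
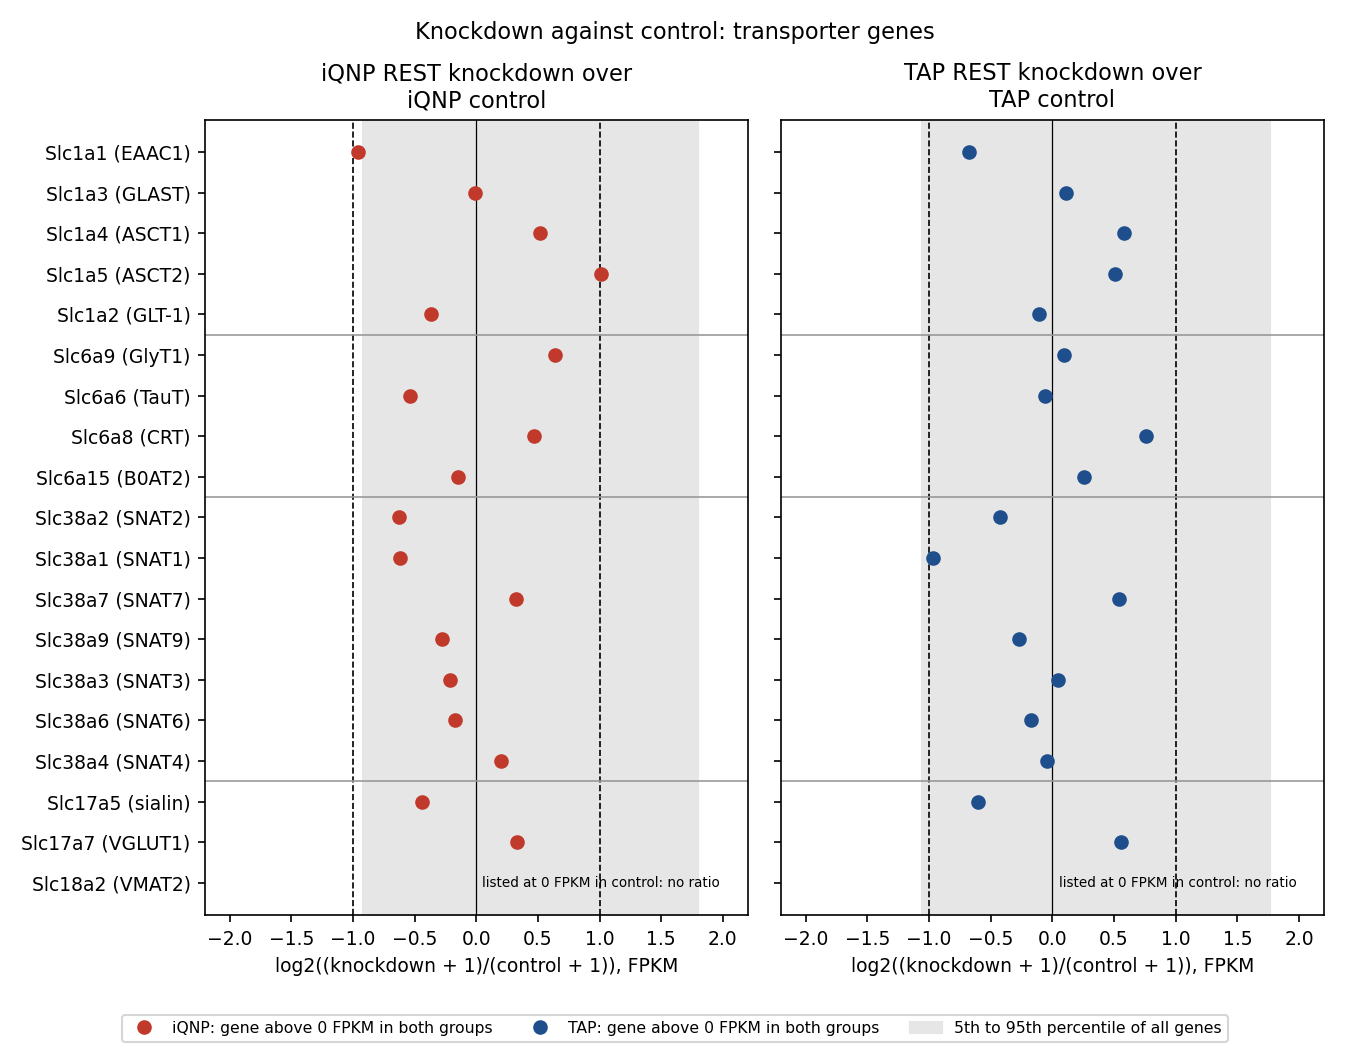
Log2 ratio of REST knockdown over control (horizontal axis, FPKM + 1) for 18 of the 19 expressed transporter genes with a ratio, in iQNPs (left) and TAPs (right), with 1 point per gene from 1 pooled value per group. Dashed lines mark a fold of 2 and grey shading the 5th to 95th percentile of all genes. In iQNPs Slc1a5 reaches the upper line (1.01), in TAPs no point crosses a line, and Slc18a2 has no ratio because it is listed at 0 FPKM in both controls.

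The ratios in the 2 culture conditions resembled each other gene by gene. Of the 19 genes, 14 had the same sign in both, 6 above 0 and 8 below 0. Pearson's r between the iQNP and the TAP ratios was 0.79 and Spearman's rho 0.80 over these 19 genes, and r was 0.91 over 9433 genes. The conditions had separate control and knockdown libraries, but they share the vectors, the cell line and the length and base composition of each gene, so these coefficients are given as descriptions. Wide gaps between the conditions were those of Slc6a9 (0.54, iQNP ratio minus TAP ratio), Slc1a5 (0.50) and Slc6a6 (-0.47), and they were not tested. Under at least 1 of the scalings tried, 5 of the 19 ratios in iQNPs and 6 in TAPs change sign, and these are all ratios above 0 in the unscaled values.

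The genomic span of a gene went together with its ratio over all genes. In iQNPs the median ratio was 0.49, 0.23, -0.13 and -0.48 in the 1st to 4th quartiles of span, from the shortest to the longest genes. In TAPs it was 0.45, 0.20, -0.11 and -0.32. The share of genes called higher was 30.3% in the 1st quartile and 2.87% in the 4th in iQNPs, and 28.5% and 4.27% in TAPs. The transporter genes are long, with a median span of 36136 bases against 21440 bases over all genes passing the filter, and 0, 7, 3 and 9 of the 19 fell in these quartiles. Set against the median of their own quartile, the low ratios of Slc1a1 shrank to -0.48 in iQNPs and -0.35 in TAPs, and that of Slc38a1 to -0.15 and -0.65. The short gene Slc38a2 moved further below, to -0.86 and -0.62, and Slc1a5 had 0.78 and 0.32. Why span and ratio go together was not tested.

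**Figure D3:**
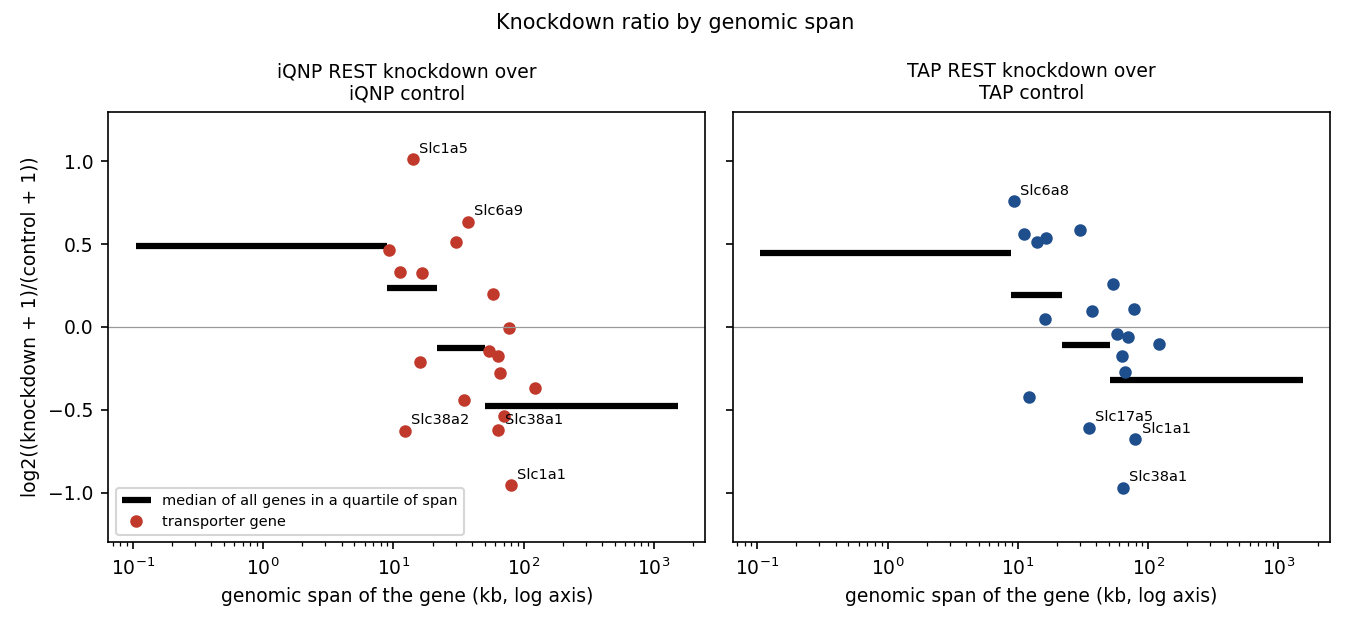
Log2 ratio of REST knockdown over control (vertical axis, FPKM + 1) against the genomic span of 18 transporter genes in kilobases (horizontal log axis), in iQNPs (left) and TAPs (right). Black bars are the medians of all genes in quartiles of span, which descend to -0.48 in iQNPs and -0.32 in TAPs for the longest genes. Slc38a2 lies well below the bar of its own quartile in both panels.

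More transporter genes passed the fold between the culture conditions than with the knockdown. Control iQNPs and control TAPs were set side by side for this, across tables that the authors made separately, so the ratios are descriptions of levels. Of 19 transporter genes, 3 were higher by the fold in control iQNPs (15.8%) and 4 were lower (21.1%), against 10.1% higher and 5.85% lower of 9436 genes. The median was -0.23 for the transporter genes and 0.03 for all genes, and 8 of 19 had an absolute ratio under 0.5, against 57.5% of all genes. The higher genes were Slc1a2 (log2 ratio 1.46), Slc6a8 (1.16) and Slc17a7 (1.03). They carry glutamate, creatine and vesicular glutamate. The Slc17a7 call is lost at 1 common sum of FPKM (0.94) and both it (0.89) and the Slc6a8 call (0.97) at that sum without ribosomal protein genes. The lower genes were Slc38a4 (-2.14), Slc38a1 (-1.20), Slc1a5 (-1.07) and Slc38a3 (-1.004), which all accept glutamine or other neutral amino acids. Slc1a2 passes the filter on the mean only through its iQNP values and Slc38a4 only through its TAP values. The calls of Slc1a2 and Slc38a4 therefore add nothing to those values.

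The lower genes differed in how far apart the groups lay. Slc38a4, which encodes the neutral and cationic amino acid carrier SNAT4 (chr7:135693013-135750703), had 0.809 FPKM in REST knockdown iQNPs and 0.574 FPKM in control iQNPs, against 5.73 FPKM in REST knockdown TAPs and 5.92 FPKM in control TAPs. The culture condition thus separated its 4 values more widely than the knockdown did. Its iQNP values are low, and the gene did not have the status OK in iQNPs. Without a pseudocount its iQNP knockdown ratio is 0.49. Slc38a3 had 4.54 FPKM in REST knockdown iQNPs and 5.42 FPKM in control iQNPs, against 12.3 FPKM in REST knockdown TAPs and 11.9 FPKM in control TAPs. On the scale of FPKM + 1, both genes were near their control in either knockdown group. Between the knockdown groups themselves, iQNPs over TAPs, the ratio was -1.89 for Slc38a4, -1.26 for Slc38a3, -0.85 for Slc38a1 and -0.57 for Slc1a5. For the higher genes it was 1.20 for Slc1a2, 0.87 for Slc6a8 and 0.81 for Slc17a7, so all 7 kept the sign they had between the controls. The kept sign adds little for Slc1a2 and Slc38a4, which pass the filter only through a single culture condition.

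**Figure D4:**
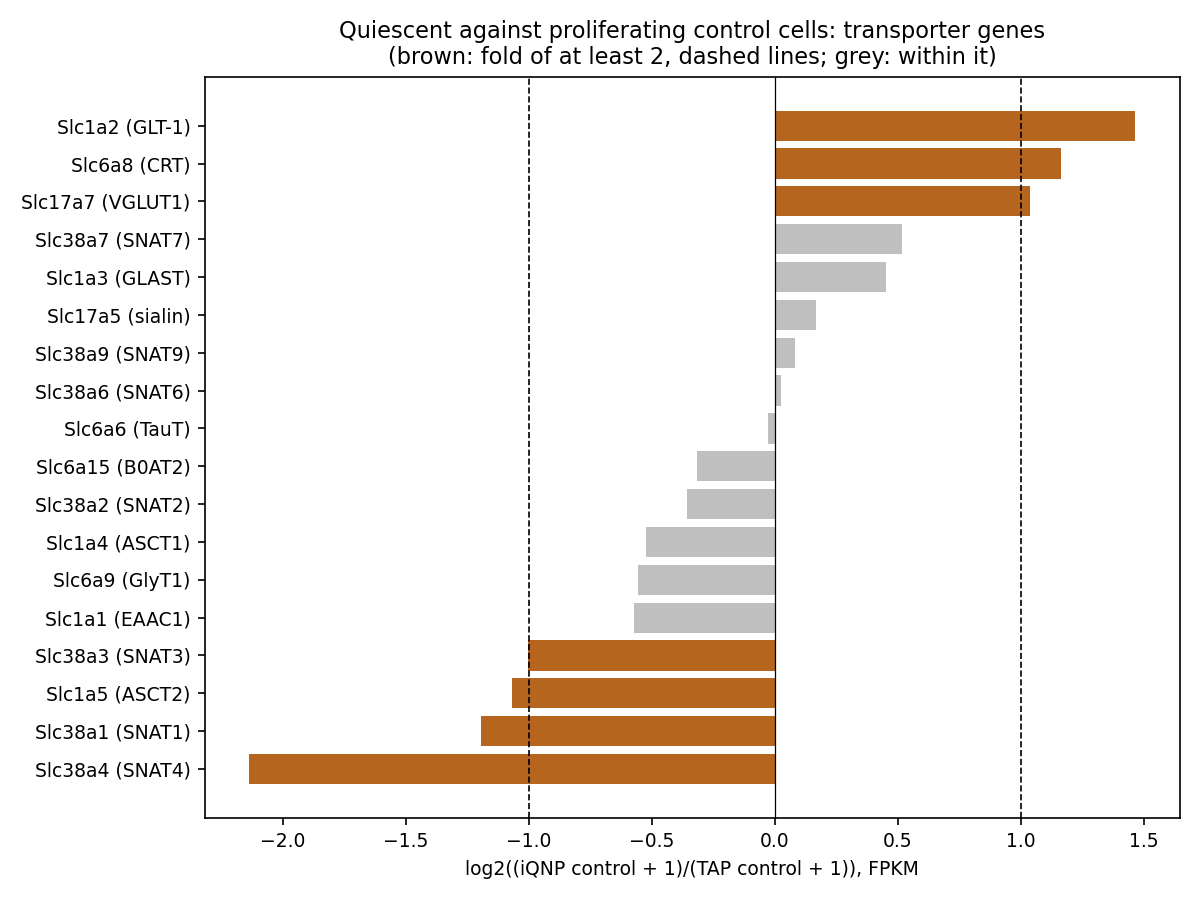
Log2 ratio of control iQNPs over control TAPs (horizontal axis, FPKM + 1) for 18 of the 19 transporter genes above 0 FPKM in both groups, with 1 bar per gene from 1 pooled value per group. Dashed lines mark a fold of 2 and brown bars the genes that reach it. Slc1a2 (1.46) is at the top and Slc38a4 (-2.14) at the bottom.

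Markers of other cell types also differed between the culture conditions. In control iQNPs against control TAPs, 2 of 3 expressed astrocyte genes were higher by the fold (Gfap, log2 ratio 3.13, and Gja1, 1.34). Of 6 expressed genes of the oligodendrocyte lineage, 3 were lower (Olig1 at -2.42, Pdgfra at -2.31 and Olig2 at -2.02) and 1 was higher. Over all genes 10.1% were higher and 5.85% lower in this comparison, and counts from lists this short say little. With the knockdown, 2 of 5 expressed neuron genes were higher and 2 lower in each condition. The shares of all genes were 14.0% higher and 3.07% lower in iQNPs, and 14.7% and 6.58% in TAPs. Snap25, a vesicle fusion protein, had log2 ratios of 2.10 in iQNPs and 2.29 in TAPs, and Syt1, a calcium sensor of vesicles, had -1.31 and -1.82. The part of these markers in the transporter values was not tested, and in bulk samples fewer cells of a type and less RNA per cell cannot be told apart.

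Genes that work beside the transporters were read from lists of pathway genes. Their ratios are given unscaled. A common sum of FPKM would shift the knockdown values by -0.53 on the log2 scale in iQNPs and by -0.61 in TAPs. List genes called higher with ratios near the fold therefore depend on the scaling, as Slc1a5 does. Synthesis of serine and glycine, substrates of ASCT1, ASCT2 and GlyT1, was represented by 7 genes, of which 2 were higher by the fold and 0 lower in iQNPs with knockdown, against 14.0% higher and 3.07% lower of all genes. Phgdh, the first enzyme of serine synthesis, had 278 FPKM in REST knockdown iQNPs against 93.5 FPKM in control iQNPs, and 456 FPKM in REST knockdown TAPs against 186 FPKM in control TAPs (log2 ratios 1.56 and 1.29). Shmt2, the mitochondrial enzyme that makes glycine from serine, had 141 FPKM in REST knockdown iQNPs against 56.3 FPKM in control iQNPs (log2 ratio 1.31), and 234 FPKM in REST knockdown TAPs against 124 FPKM in control TAPs (0.91). In TAPs 1 of the 7 was higher (Phgdh) and 0 were lower, against 14.7% and 6.58% of all genes, so the TAP count is near the share of all genes. Against control TAPs, control iQNPs had 3 of the 7 lower (Shmt1 at -1.74, Psat1 at -1.42 and Shmt2 at -1.13) and 0 higher. Over all genes 5.85% were lower and 10.1% higher in that comparison.

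With knockdown, amino acid transporters of other families were called at shares near those of all genes. Of 11 expressed genes of the families Slc3a, Slc7a, Slc36a and Slc43a, 1 was higher and 0 lower with knockdown in iQNPs (14.0% and 3.07% of all genes), and 2 were higher and 1 lower in TAPs (14.7% and 6.58% of all genes). Slc7a5, which encodes the large neutral amino acid exchanger LAT1, was the gene higher in both, with 185 FPKM in REST knockdown iQNPs against 79.7 FPKM in control iQNPs, and 254 FPKM in REST knockdown TAPs against 109 FPKM in control TAPs. Its unscaled log2 ratios were 1.20 and 1.21. Slc7a11, the cystine and glutamate exchanger, was lower in TAPs, with 10.9 FPKM in REST knockdown cells against 31.2 FPKM in control cells (log2 ratio -1.44), and had 5.18 FPKM in REST knockdown iQNPs against 5.47 FPKM in control iQNPs. Slc36a1, a lysosomal amino acid exporter, was higher in TAPs, with 5.30 FPKM in REST knockdown cells against 1.46 FPKM in control cells (log2 ratio 1.35). In control iQNPs against control TAPs, 1 of the 11 was higher (Slc36a1 at 2.01). In that comparison 3 were lower (Slc7a11 at -2.32, Slc7a6 at -1.12 and Slc7a1 at -1.11). The shares of all genes were 10.1% higher and 5.85% lower. Of 7 genes of the amino acid response, 2 were higher in iQNPs with knockdown (Trib3 at 2.202 and Ddit3 at 1.07) and 0 in TAPs, where Slc7a11 was the 1 lower gene, against 14.0% higher of all genes in iQNPs and 14.7% higher and 6.58% lower in TAPs.

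For the enzymes of glutamate, glutamine and GABA, 9 genes were expressed. With knockdown 0 were higher and 0 lower in iQNPs (14.0% and 3.07% of all genes) and in TAPs (14.7% and 6.58%), which for a list this short says little. Between control iQNPs and control TAPs 2 were higher and 2 lower, against 10.1% higher and 5.85% lower of all genes. Gad1, which encodes a GABA-synthesising enzyme, had 20.3 FPKM in control iQNPs against 1.88 FPKM in control TAPs (log2 ratio 2.89). Subunits of the proton pump that energises vesicular loading were well expressed, and 3 of 17 were higher and 0 lower in iQNPs with knockdown, and 2 of 17 higher and 0 lower in TAPs, close to the shares of all genes called higher (14.0% in iQNPs and 14.7% in TAPs). Atp6v0b had 229 FPKM in REST knockdown iQNPs against 41.2 FPKM in control iQNPs, and 124 FPKM in REST knockdown TAPs against 26.4 FPKM in control TAPs. Atp6v0b lies in the 1st quartile of span, in which the share of genes called higher was largest.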

How the data were processed

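RNA-seq of total RNA depleted of ribosomal RNA was done on HCN cells in 12 libraries. Reads were mapped by the authors to rat build rn4 with TopHat2, and levels came from Cufflinks and Cuffdiff at default settings, with versions not given in the sources used here. The 2 deposited Cuffdiff tables, 1 per culture condition, hold 1 FPKM value per gene and group, pooled by the authors over 2 control or 4 knockdown libraries. FPKM divides fragments by transcript length and depth, so a group in which a few genes take more reads shows lower values elsewhere. The tables also hold fold changes, a test statistic, p and q values and a mark of significance, which were not used.

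Ratios were log2((first + 1)/(second + 1)), with a pseudocount of 1 FPKM, computed over all genes. Calls needed a fold of at least 2, a mean of at least 1 FPKM over the 4 groups and both values above 0. Genes listed at 0 got no ratio. A few genes that enter the counts are not reported here by name. No test was run, since each group has 1 value. Samples were grouped by their labels, and cells that were not electroporated were not analysed here. Loci are printed as the authors gave them (rn4), and promoter sequences are from RefSeq (GRCr8). Values in all groups were printed for genes past the fold in a knockdown comparison, the 3 most abundant genes per family and the vesicular transmitter carriers, and from each other list up to 3 genes past the fold. Further transporter genes and markers were added for completeness or chosen after their values were seen. The transporter genes and lists were chosen with earlier results of these data known. Alternatives covered pseudocount, filter, scaling, fold, status and zeros, and one on genomic span was added after seeing the data. The code was tested on simulated data (Python 3.11.15, pandas 2.3.3, numpy 2.4.6, matplotlib 3.10.9).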

Additional observations from a re-analysis of the deposited data

How the results depend on the processing

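No called transporter gene changed direction under any alternative run. In iQNPs, knockdown over control, 1 transporter gene was higher and 0 lower. Scaling both groups to 1 sum of FPKM gave 0 higher, 4 lower (Slc1a1, Slc38a1, Slc38a2, Slc6a6) and a median of -0.51. The same without ribosomal protein genes gave 0 higher and 1 lower (Slc1a1). A fold of 1.5 gave 2 higher (Slc1a5, Slc6a9) and 3 lower (Slc1a1, Slc38a1, Slc38a2), and keeping genes listed at 0 gave 2 higher (Slc18a2, Slc1a5). Slc18a2 passes the filter only through its knockdown values, so its call here, like that in TAPs, adds nothing to those values. Subtracting the median of the span quartile, added after seeing the data, gave 0 higher. In TAPs, where 0 were higher and 0 lower, a pseudocount of 0.1 or of 0 gave 1 higher (Slc17a7) and 1 lower (Slc38a1), no filter gave 1 lower (Slc17a1), and 1 sum of FPKM gave 4 lower (Slc17a5, Slc1a1, Slc38a1, Slc38a2) and a median of -0.51. Without ribosomal protein genes that scaling gave 1 lower (Slc38a1). A fold of 1.5 gave 1 higher (Slc6a8) and 3 lower (Slc17a5, Slc1a1, Slc38a1), keeping zeros gave 1 higher (Slc18a2), and the span adjustment gave a median of 0.22. Between control iQNPs and control TAPs, a minimum mean of 5 FPKM gave 1 higher (Slc6a8), and 1 sum without ribosomal protein genes gave 1 higher (Slc1a2). The causes were not tested. The other 73 counts and medians stayed within 1.5 times or 0.25 on the log2 scale, as did 386 single-gene ratios, while 51 moved by more. No paired analysis was possible because each group has 1 pooled value, and leaving out single libraries was not run for that reason. Depth per library is not known from these tables.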
